A study of Sus scrofa with 6 samples.

Results

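Cyclic nucleotide phosphodiesterases are the enzymes that break down cyclic AMP (cAMP) and cyclic GMP (cGMP). Their transcripts were followed in porcine midbrain-like organoids (pMLOs) by single-cell RNA sequencing. The genes described were PDE3A, PDE3B, PDE4B, PDE4D and PDE10A, taken by symbol, which makes 5 of the 30477 genes in the tables, each with 1 row. PDE3A was chosen because its rise over the days was already known, and the other members were named with earlier results of these data in view. Their changes over the days are therefore given as a description, without a test. Organoids were grown from IVF_1_ pESC_FIW, a single porcine embryonic stem cell line derived from an in vitro fertilised embryo, and were sampled on days 11, 28 and 45 (D11, D28, D45), with 2 libraries (A and B) per day. All organoids received SB431542, Noggin, SHH-C24II and CHIR99021 at the start, then FGF8. On D11 they were in B27 medium with FGF8, BDNF and ascorbic acid. After embedding in Matrigel they were kept in medium with BDNF, GDNF, ascorbic acid, DAPT and db-cAMP, a cell-permeable cAMP analogue. The D28 and D45 organoids had thus been exposed to a cAMP analogue and the D11 organoids had not, so the day and the medium cannot be told apart.

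cAMP and cGMP carry signals from receptors to protein kinases, exchange factors and channels inside the cell, and phosphodiesterases end those signals by hydrolysis. PDE3A and PDE3B hydrolyse cAMP and are inhibited by cGMP; PDE3A is best known from heart, vascular smooth muscle and platelets, and PDE3B from fat and liver, where insulin activates it. PDE4B and PDE4D are specific for cAMP, are the targets of rolipram and are widespread in brain. PDE10A hydrolyses both nucleotides and is known for its high level in striatal medium spiny neurons. The catalytic domain of all these enzymes holds a conserved histidine and aspartate signature that contributes to the metal site. The coding bases of this signature are shown for PDE3B, PDE4B, PDE4D and PDE10A so that they can be compared within it. The stretches were found by a pattern that fixes several of their amino acids, so the shared bases do not measure how related the genes are. They are the 36 bases, 5′ to 3′ on the coding strand, of the RefSeq annotation of Sscrofa11.1, with the 14 bases shared by these 4 genes in capitals.
PDE3B, chr2:44434513-44434548, minus strand: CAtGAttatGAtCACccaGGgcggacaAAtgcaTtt
PDE4B, chr6:146176120-146176155, minus strand: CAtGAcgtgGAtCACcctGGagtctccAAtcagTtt
PDE4D, chr16:37909548-37909583, minus strand: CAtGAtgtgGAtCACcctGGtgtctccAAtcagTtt
PDE10A, chr1:3359225-3359260, plus strand: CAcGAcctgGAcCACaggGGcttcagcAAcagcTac

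Each stretch lay in 1 coding exon. PDE4B and PDE4D shared 34 of 36 bases, PDE3B shared 22 and 23 with them, and PDE10A shared between 15 and 20 with the others. The genes are long: PDE3A (ENSSSCG00000028662) spanned 324269 bases of chromosome 5, PDE3B (ENSSSCG00000013388) 197142 bases of chromosome 2 and PDE10A (ENSSSCG00000004027) 273819 bases of chromosome 1. PDE4B (ENSSSCG00000003805) spanned 552844 bases of chromosome 6, and PDE4D (ENSSSCG00000016929) 1509235 bases of chromosome 16. Counts came from the 3′ end of transcripts, so transcript forms of a gene were not resolved and levels were compared only within a gene.

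In all, 103519 cells of 104820 barcodes were kept, with 106851387 to 180098372 unique molecular identifiers (UMIs, counted molecules) per library. Median depth per cell ranged from 2240 UMIs in D45 library A to 10741 in D11 library A, and both D45 libraries were shallower than the others. Libraries shared between 0.387% and 0.636% of the smaller library's cell barcodes. The labels call the cells midbrain dopaminergic neurons; TH, the rate-limiting enzyme of dopamine synthesis, lay between 11.5 and 55.1 CPM in the 6 libraries, and SLC6A3, the dopamine transporter, did not exceed 2.55 CPM. FOXA2, the floor plate factor, went from 89.98 and 101.1 CPM in the D11 libraries to 4.93 and 4.56 in those of D45. Levels are CPM, the summed UMIs of a gene in a library or in a group of its cells scaled to a common total, and the error of a mean is the SD of the 2 libraries of a day (n = 2). Fold changes of the fit also use TMM, a scaling for library composition that CPM lacks, so they can differ from ratios of CPM. Statements on overlap of libraries refer to CPM.

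PDE3A was nearly absent on D11 and had the steepest rise of the 5 genes. It was at 5.04 and 5.44 CPM in the D11 libraries A and B, at 199.6 and 142.3 on D28, and at 749.7 and 857 on D45. The 3 days did not overlap, and the mean rose from 5.24 ± 0.283 to 171 ± 40.5 and 803 ± 75.8 CPM. The D11 values rested on 797 and 979 UMIs. On the scale of the fit across all genes, its log2 fold change was 4.79 ± 0.32 (SE) for D28 against D11, 2.06 ± 0.29 for D45 against D28 and 6.85 ± 0.36 for D45 against D11.

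PDE3B, the closest relative of PDE3A, changed little by comparison. Its D11 libraries held 89.8 and 73.3 CPM, those of D28 108 and 164.9, and those of D45 115 and 144.8. In CPM the D11 libraries lay below the later ones, an order that may depend on this scaling, and the D28 and D45 libraries overlapped. On the scale of the fit the log2 fold change was 0.27 ± 0.22 (SE) for D45 against D11 and -0.19 ± 0.22 for D45 against D28.

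The cAMP-specific pair rose from D11 to D28 and less after it. PDE4B went from 64.02 and 56.01 CPM on D11 to 156.2 and 256.8 on D28 and 275.9 and 270.5 by D45. In CPM the days did not overlap, but the D28 libraries were farther apart than the D28 mean was from D45, 206.5 ± 71.2 against 273 ± 3.85 CPM. PDE4D was at 113.7 and 93.5 CPM on D11, 338.3 and 477.3 on D28, and 625.3 in both D45 libraries. All days were separate here too, with log2 fold changes of 1.70 ± 0.21 (SE) from D11 to D28 and 0.48 ± 0.20 from D28 to D45.

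PDE10A took the opposite course first. It stood at 186.2 and 182.2 CPM on D11, was at 120.2 and 170.4 on D28 and reached 484 and 531 on D45. The D28 libraries lay below D11 and the D45 libraries above both, with log2 fold changes of -0.62 ± 0.20 (SE) for D28 against D11 and 1.67 ± 0.20 for D45 against D28. The sign of the change thus differed between the intervals for PDE10A. It also differed for PDE3B, at 0.46 ± 0.22 and -0.19 ± 0.22, the second smaller than its error, whereas PDE3A, PDE4B and PDE4D had positive values in both.

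**Figure D1:**
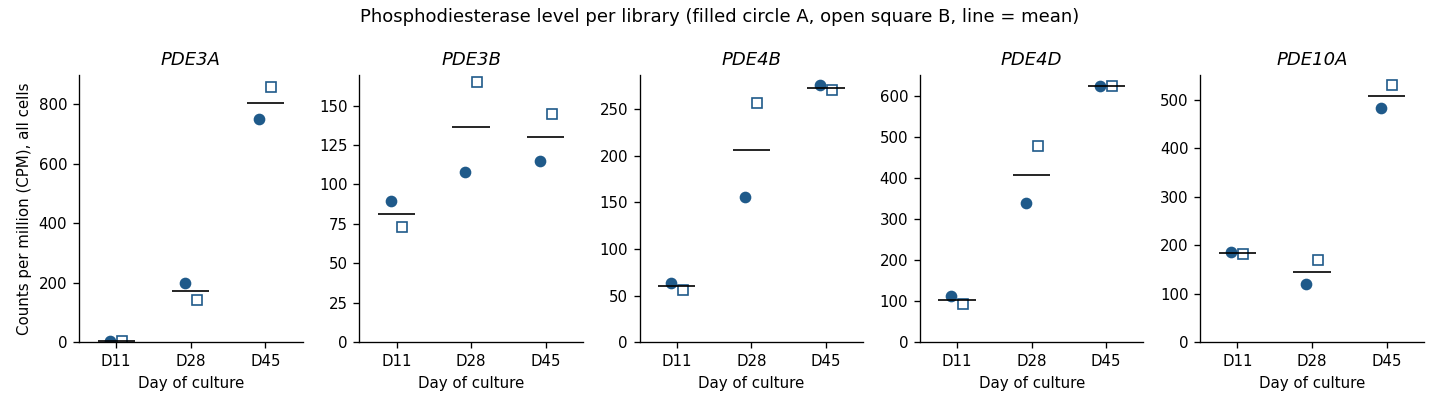
Level of each gene in CPM (vertical axis, linear, starting at 0 and scaled per gene) on D11, D28 and D45 (horizontal axis); filled circles are library A, open squares library B, and lines the mean of the 2 libraries. PDE3A climbs from 5.04 and 5.44 CPM to 749.7 and 857, PDE10A dips on D28 before it rises, and the D28 and D45 libraries of PDE3B overlap.

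In a summed library, more cells that hold a transcript and more RNA per cell cannot be told apart. A share of cells with a UMI does not separate them either. Because depth per cell differed between days, each cell was thinned to 1000 UMIs, leaving out between 1000 and 6735 shallower cells per library. The share of cells with a PDE3A UMI was then 0.502% and 0.527% in the D11 libraries, 12.2% and 7.54% in those of D28, and 24.3% and 29.2% in those of D45. Without thinning it was 3.53% and 2.85%, 26.6% and 23.1%, and 33.0% and 42.1%. For PDE4D the thinned share went from 10.6% and 8.88% on D11 to 38.2% and 39.5% on D45, and for PDE3B from 8.11% and 7.55% to 8.23% and 10.4%. No cell type known to lack these genes was available to set the level of free RNA, so the D11 share of PDE3A is the lowest level seen, not a measured background.

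COL1A1, a fibroblast collagen, did not exceed 2.04 CPM in the D11 libraries. The D28 libraries held 209 and 33.1 CPM of it and the D45 libraries 177 and 563, so the content of collagen-producing cells moved with the days and differed within them. With every cell that held a COL1A1 UMI left out, PDE3A went from 4.85 and 5.10 CPM on D11 to 109.2 and 120.5 on D28 and 609.6 and 699.1 by D45. The mean CPM on D45 was 131-fold that on D11 in these cells, against 153-fold over all cells, where the fit gave 116-fold. For comparison, PDE4D had a D45 to D11 ratio of 5.42 without COL1A1-positive cells and 6.04 with them. Collagen-producing cells with no COL1A1 UMI counted stayed in, so these ratios do not give the change outside that cell type.

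Cells were next grouped by the UMIs of 4 marker genes. LMX1A marks floor plate and roof plate progenitors and the dopaminergic lineage, AQP4 is the astrocyte water channel, COL1A1 the fibroblast collagen and STMN2 a cytoskeletal regulator of neurons. A cell was called positive with at least 1 UMI. STMN2 UMIs were found in 63.1% to 84.4% of the cells positive for any other marker on D28 and D45, so these groups overlap, and free RNA or doublets were not removed. Exclusive cells, with a UMI of 1 of the 4 markers and of none of the others, were used for differences between groups. AQP4-positive cells numbered 6 and 2 on D11, and exclusive ones 17 and 12 on D28, under the minimum of 20 cells per library, so AQP4 differences within a library came from D45.

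On D28 and D45 each exclusive group held more of its own marker list than the other groups did, but each list includes the gene that chose the cells. On D28 and D45 the 7 fibroblast markers summed to 3553 to 9374 CPM in the COL1A1-positive cells, against 172 to 390 in the STMN2-positive cells. The 7 neuron markers summed to 2579 to 2983 CPM in the STMN2-positive cells, against 183 to 454 in the other groups, and the 6 measured astrocyte markers to 1711 and 2046 CPM in AQP4-positive cells, against at most 391 elsewhere. The 8 markers of the LMX1A list summed to 593 to 741 CPM in LMX1A-positive cells, against 73.3 to 228 in the other groups. Those cells held more of the fibroblast markers than of their own list in 3 of the 4 libraries, at 724 to 1356 CPM, whose part in the results was not tested. The groups differed in depth: on D45 the medians were 10641 and 9807 UMIs in the exclusive COL1A1-positive cells but 2632 and 2763 in the LMX1A-positive and 2490 and 3046 in the STMN2-positive cells.

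Among exclusive cells, PDE3A was highest in the COL1A1-positive cells on D28 and in the LMX1A- and COL1A1-positive cells on D45. On D28 it was at 696.2 and 661.1 CPM in the COL1A1-positive, 187.8 and 199.2 in the LMX1A-positive and 84.0 and 96.2 in the STMN2-positive cells. This order had no overlap between neighbours, but its lower part rested on exclusive cells. In all LMX1A-positive cells of D28, thinned as above, 9.03% and 10.2% held a PDE3A UMI in libraries A and B. In all STMN2-positive cells it was 9.62% and 6.28%, which overlapped and was the higher share in library A. All COL1A1-positive cells stayed above both, at 32.4% and 30.7%. By D45 PDE3A had reached 1929 and 1988 CPM in exclusive LMX1A-positive cells and 2142 and 1339 in exclusive COL1A1-positive cells. Exclusive AQP4-positive cells were at 1410 and 1198 CPM and STMN2-positive cells at 419.3 and 411.1. The COL1A1-positive libraries then enclosed the LMX1A-positive ones and overlapped the AQP4-positive ones, so only the STMN2-positive cells stood apart from all the others, at the bottom.

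The D28 to D45 step of PDE3A was 10.1-fold in exclusive LMX1A-positive cells, 4.61-fold in STMN2-positive and 2.56-fold in COL1A1-positive cells. Cells with no UMI of the 4 markers showed the rise as well, from 2.77 and 3.39 CPM on D11 to 138.1 and 155.2 on D28 and 682.7 and 752.5 on D45. Their median depth fell from 10355 and 6189 UMIs on D11 to 728 and 4408 on D28 and 940 and 985 on D45. At such depth a marker can go uncounted and free RNA was not removed, so they are not a separate cell type. The D45 place of the LMX1A-positive cells rested on exclusive cells, 177 of 1142 and 326 of 2135 LMX1A-positive cells. Among all LMX1A-positive cells, whether or not they held another marker, PDE3A was at 1093 and 1190 CPM on D45, which overlapped all AQP4-positive cells (1158 and 1097) and lay below all COL1A1-positive cells (1755 and 1209). In cells with a TH UMI it was at 368.2 and 600.2 CPM on D45, below the whole organoids. On D11 the exclusive LMX1A-positive cells were at 10.5 and 9.94 CPM and the STMN2-positive cells at 3.53 and 3.01, which did not overlap. COL1A1-positive cells of D11, 156 and 102 in number, were at 3.89 and 12.1 CPM, a range that took in both LMX1A-positive libraries and lay above the STMN2-positive ones.

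Of the exclusive groups, the COL1A1-positive cells had the highest PDE4D on D28 and D45. In exclusive COL1A1-positive cells it was at 562.4 and 577.3 CPM on D28 and 1100 and 946.3 on D45. STMN2-positive cells were at 320.1 and 498 CPM, then at 536 and 532.9. LMX1A-positive cells were at 239.2 and 398.3 CPM on D28 and 696.5 and 604.6 on D45, and AQP4-positive cells at 609.6 and 558.6 on D45. The COL1A1-positive values were thus above those of every other exclusive group of the same day. On D28 the libraries overlapped when cells with other markers were kept. All COL1A1-positive cells were at 456.7 and 546.5 CPM, all LMX1A-positive cells at 303.2 and 524.9 and all STMN2-positive cells at 335.5 and 516.3. Cells with a UMI of TH were at 344.5 and 609.4 CPM and those with GAD2 at 352.8 and 692.9. Within each D28 library all COL1A1-positive cells were above all LMX1A- and STMN2-positive cells, but in library B below cells with TH or GAD2. Over both days these overlapping groups gave 0.51 ± 0.10 (SE) for COL1A1 against STMN2 (edgeR adjusted p 0.0011, beside 44.3% of genes). For LMX1A against COL1A1 they gave -0.48 ± 0.10 (edgeR adjusted p 0.0014, beside 46.8%). Among exclusive cells PDE4D was higher in COL1A1- than in STMN2-positive cells in 4 of 4 libraries. The log2 difference was 0.94 ± 0.15 (SE), with an adjusted p of 0.00034 (edgeR quasi-likelihood test, Benjamini-Hochberg over all genes tested).

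It was also higher than in LMX1A-positive cells in 4 of 4 libraries (LMX1A against COL1A1, log2 difference -0.88 ± 0.15, edgeR adjusted p 0.0011) and than in AQP4-positive cells in both D45 libraries (0.86 ± 0.19, edgeR adjusted p 0.0076). The AQP4 call was lost without either D45 library, at an edgeR adjusted p of 0.134 each time. These shares of calls have to be read against the whole table, since 48.1% of 15802 genes passed between COL1A1- and STMN2-positive cells, 31.5% between LMX1A- and COL1A1-positive and 25.4% between COL1A1- and AQP4-positive cells. Of the 4 members tested, 2 passed in the first of these comparisons and 1 in each of the others, so these counts are near the background. In AQP4- against STMN2-positive cells none of the 4 passed with edgeR (1 at an unadjusted p under 0.05, and 1 with DESeq2), beside 33.2% of genes. In LMX1A- against AQP4-positive cells none passed either with edgeR (1 at an unadjusted p under 0.05, and 0 with DESeq2), beside 4.64%.

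Exclusive STMN2-positive cells had the lowest PDE3B on D11 and D45, without overlap with the other groups measured, but not on D28. On D11 they were at 72.7 and 61.9 CPM, the LMX1A-positive cells at 95.0 and 79.4 and the COL1A1-positive cells at 96.6 and 79.5. Exclusive LMX1A-positive cells were at 155.8 and 269.5 CPM on D28 and 185.6 and 158.9 on D45. COL1A1-positive cells went from 105 and 124.8 CPM to 277.4 and 216.1, while STMN2-positive cells went from 107.7 and 135 to 73.6 and 95.8. AQP4-positive cells were at 175.2 and 211.6 CPM on D45. The D45 libraries of the COL1A1-positive cells lay above both D28 libraries, and those of the STMN2-positive cells lay below both. This was not so for STMN2 when cells with other markers were kept: all STMN2-positive cells were at 95.0 and 139.6 CPM on D28 and 104.1 and 134.1 on D45, which overlapped, and on D45 they also overlapped all LMX1A-positive cells, at 145.3 and 128.3. All COL1A1-positive cells were still higher on D45 without overlap, at 97.9 and 137.5 CPM before and 235.9 and 193.7 then.

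Over both days PDE3B was higher in LMX1A- than in STMN2-positive cells in 4 of 4 libraries, with a log2 difference of 1.00 ± 0.30 (SE) and an edgeR adjusted p of 0.0298, beside 27.0% of all genes. The call was lost without D28 library B (adjusted p 0.0519), D45 A (0.0831) or D45 B (0.107). It was also lost in groups that were not exclusive, where the log2 difference was 0.21 ± 0.17 (edgeR adjusted p 0.708, beside 1.78% of genes). Against STMN2-positive cells, COL1A1-positive cells had a log2 difference of 1.02 ± 0.30 and an edgeR adjusted p of 0.017, yet only 2 of 4 libraries were higher, both of D45. Without D45 library A or B that call was lost, at 0.154 and 0.132. AQP4-positive cells were higher than STMN2-positive cells by 1.00 ± 0.39, which missed the threshold (edgeR adjusted p 0.0674). The exclusive AQP4-positive cells in that fit were all of D45, and the fit on the D45 libraries alone gave 1.34 ± 0.17 (edgeR adjusted p 0.00013, beside 47.7% of genes). Groups that were not exclusive gave 0.66 ± 0.18 (edgeR adjusted p 0.0098, beside 43.0% of genes).

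With each day fitted alone, the difference of PDE3B between COL1A1- and STMN2-positive cells was 0.13 ± 0.17 (SE) on D28, with an edgeR adjusted p of 0.622, and 1.80 ± 0.17 on D45, with an edgeR adjusted p of 1.04e-05. Background shares were 29.9% and 50.9% of genes. Between LMX1A- and COL1A1-positive cells the sign turned, from 0.74 ± 0.18 on D28 (edgeR adjusted p 0.0386, beside 17.9%) to -0.68 ± 0.17 on D45 (edgeR adjusted p 0.0136, beside 33.0%). The D28 side of this turn rested on exclusive cells: all LMX1A-positive cells were then at 96.9 and 181.5 CPM and all COL1A1-positive cells at 97.9 and 137.5, which overlapped, as did cells with at least 3 UMIs of the marker, at 74.6 and 128.8 against 87.9 and 125.6. The change of a difference from D28 to D45 was tested itself for PDE3B, PDE4B, PDE4D and PDE10A in 3 comparisons, tests added after these values had been seen, and 4 of the 12 passed. For PDE3B it was 1.62 ± 0.26 for COL1A1 against STMN2 (edgeR adjusted p 0.0183) and -1.45 ± 0.27 for LMX1A against COL1A1 (edgeR adjusted p 0.0177). Such a change passed for 2.01% and 4.84% of 15849 genes. For LMX1A against STMN2 it was 0.17 ± 0.26 (edgeR adjusted p 0.818).

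PDE10A was higher on D45 than on D28 in LMX1A-, STMN2- and COL1A1-positive cells, and among exclusive cells the step was widest in the LMX1A-positive ones. In exclusive LMX1A-positive cells it went from 176.3 and 168.8 CPM on D11 to 92.2 and 135.8 on D28 and 928.7 and 877.4 by D45, a 7.92-fold step between the last days. The lower level on D28 was not shared by all LMX1A-positive cells, whose D11 libraries (176.2 and 170.6 CPM) overlapped those of D28 (121.9 and 188.0), and it turned in cells with at least 3 LMX1A UMIs, at 131.5 and 120.2 on D11 and 138.1 and 225.2 on D28. The step from D28 to D45 was 4.38-fold in all LMX1A-positive cells, and in cells with at least 3 LMX1A UMIs it was 3.76-fold, next to 3.79-fold in cells with at least 3 COL1A1 UMIs. STMN2-positive cells were at 177.9 and 174.1, then 122.1 and 169.2, then 391.4 and 429.6 CPM. COL1A1-positive cells went from 104.4 and 181.1 CPM on D28 to 674 and 483.1 on D45, and AQP4-positive cells stood at 632.5 and 720.7 on D45. On D45 the LMX1A-positive libraries were the highest and the STMN2-positive ones the lowest, with the other groups overlapping in between.

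Over both days together no comparison of PDE10A between exclusive groups passed the threshold, and LMX1A- against STMN2-positive cells gave 0.51 ± 0.24 (SE; edgeR adjusted p 0.148). In groups that were not exclusive it was 0.27 ± 0.16 (edgeR adjusted p 0.549, beside 1.78% of genes). There AQP4- against STMN2-positive cells gave 0.59 ± 0.16 (edgeR adjusted p 0.011, beside 43.0%). Within D45 the exclusive LMX1A- and STMN2-positive cells differed by 1.24 ± 0.14 (edgeR adjusted p 0.00027, beside 23.7% of all genes), and within D28 by -0.27 ± 0.11 (edgeR adjusted p 0.151, beside 16.2%). The change between the days was 1.42 ± 0.20 with an edgeR adjusted p of 0.011, beside 1.8% of genes. Against COL1A1-positive cells it was 0.86 ± 0.20, with an edgeR adjusted p of 0.0443, while for COL1A1 against STMN2 it was 0.57 ± 0.20 (edgeR adjusted p 0.207). The 6 such tests of PDE4B and PDE4D gave edgeR adjusted p from 0.0708 to 0.776.

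In exclusive cells of D28, PDE4B was at 90.2 and 180.4 CPM in LMX1A-positive, 152.2 and 195.4 in COL1A1-positive and 176.1 and 265.4 in STMN2-positive cells, with overlaps between all 3 groups. In the D45 libraries it was at 245.5 and 240.5 CPM in LMX1A-positive, 282.3 and 289.8 in AQP4-positive, 177 and 180 in COL1A1-positive and 266.2 and 297.4 in STMN2-positive cells. On that day COL1A1-positive cells were lowest without overlap. Between exclusive groups no comparison of PDE4B passed over both days. COL1A1 against STMN2 gave -0.26 ± 0.15 (SE, edgeR adjusted p 0.183), with 4 of 4 libraries lower. LMX1A against STMN2 gave -0.36 ± 0.16 (edgeR adjusted p 0.108), also with 4 of 4 lower. In groups that were not exclusive, COL1A1 against AQP4 passed, at -0.40 ± 0.14 (edgeR adjusted p 0.0479, beside 25.5% of genes). Within D45 alone, PDE4B was lower in COL1A1- than in STMN2-positive cells (log2 difference -0.40 ± 0.09, edgeR adjusted p 0.0054) and than in AQP4-positive cells (-0.57 ± 0.10, edgeR adjusted p 0.00099, beside 38.3% of all genes). Of the 4 members tested within D45, all 4 passed for COL1A1 against STMN2 (beside 50.9% of genes), 3 for AQP4 against STMN2 (beside 47.7%), 3 for LMX1A against STMN2 (beside 23.7%), 3 for LMX1A against COL1A1 (beside 33.0%), 2 for COL1A1 against AQP4 (beside 38.3%) and 0 with edgeR for LMX1A against AQP4 (2 at an unadjusted p under 0.05, beside 9.74%).

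**Figure D2:**
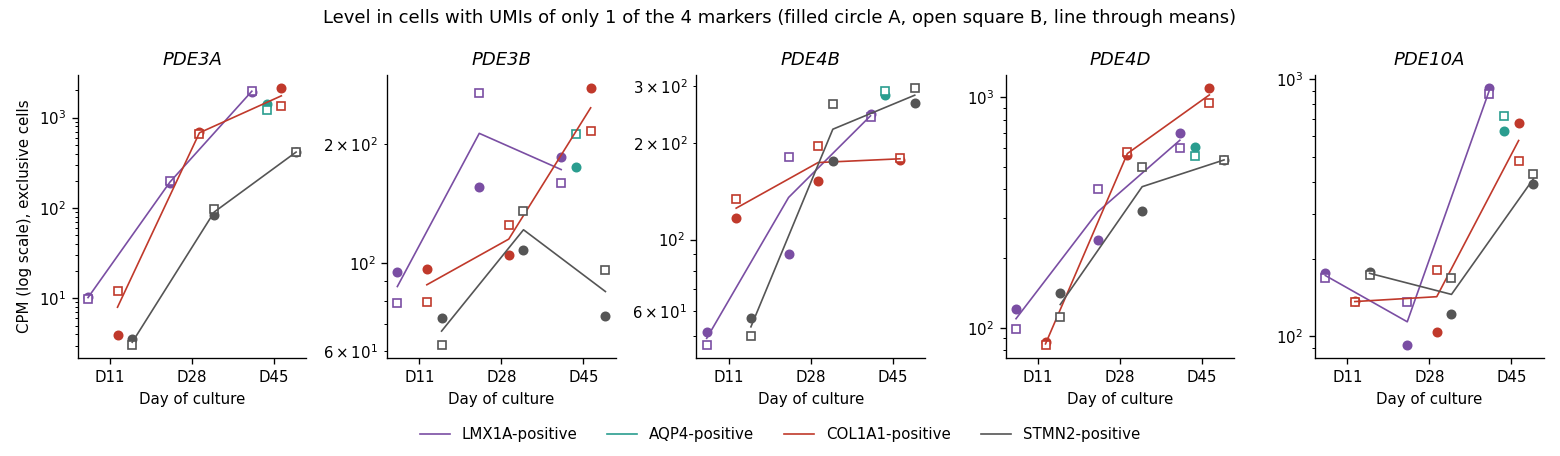
CPM (vertical axis, log scale, scaled per gene) in exclusive LMX1A-, AQP4-, COL1A1- and STMN2-positive cells on D11, D28 and D45 (horizontal axis); filled circles are library A, open squares library B, lines join the means, and groups under 20 cells are left out. PDE3A is lowest in STMN2-positive cells on D28 and D45, PDE4D is highest in COL1A1-positive cells on both days, and PDE3B of COL1A1- and STMN2-positive cells moves apart by D45.

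**Figure D3:**
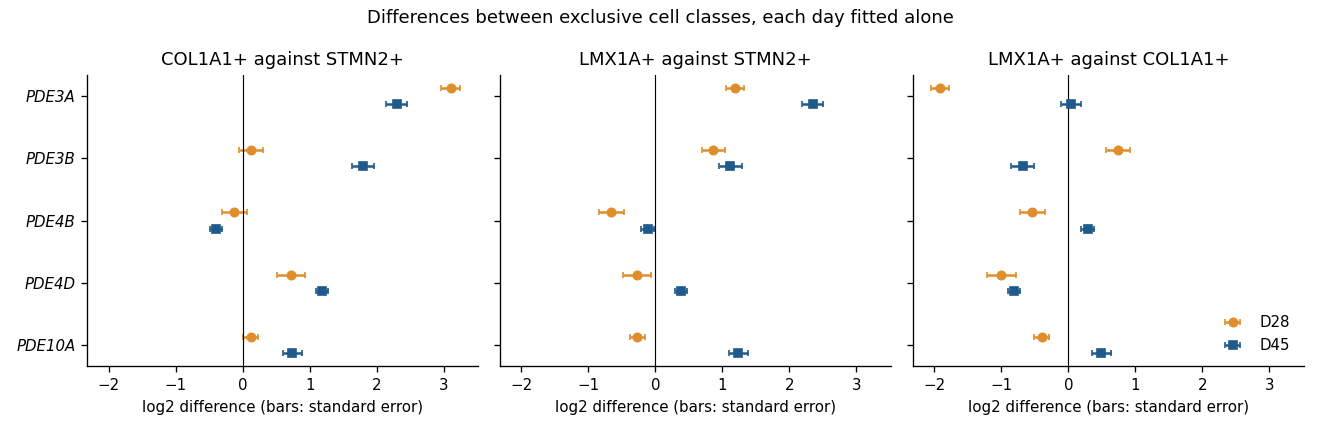
Log2 difference between exclusive cell groups (horizontal axis, bars are the standard error) for each gene (vertical axis), with D28 (circles) and D45 (squares) fitted alone. PDE3B of LMX1A- against COL1A1-positive cells lies at 0.74 on D28 and -0.68 on D45, PDE10A of LMX1A- against STMN2-positive cells at -0.27 and 1.24, and PDE4D of COL1A1- against STMN2-positive cells is above 0 on both days; PDE3A is drawn as a description.

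The remaining 16 cyclic nucleotide phosphodiesterases were tested over the days with all other genes. They and the further lists below were also chosen with earlier results of these data known, so their calls are not independent of that choice. For D45 against D11, 6 of the 15 tested were higher and 2 lower, with 17.3% and 17.4% of 22197 genes called in the same directions. Of the 1113 tested genes known to span at least 200000 bases, 34.9% were called higher, with a median log2 fold change of 0.28, though a span was known for only 59.9% of the genes tested. PDE7B (467494 bases), PDE1C (592240) and PDE8B (316607) are of that length and were called higher. PDE1A (346020) and PDE11A (418185) are of that length too and were not called, and the part of length in these results was not tested. PDE6B, a photoreceptor enzyme, was too low to test. The list's median log2 fold change was 0.55, against -0.01 for all genes. By substrate, 4 of the 6 cAMP-specific genes were higher and none lower at this threshold, while of the 4 cGMP-specific genes tested 1 was higher and 1 lower.

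PDE7B, a cAMP-specific enzyme of brain, had the largest change among these genes. It went from 6.60 and 6.51 CPM on D11 to 102 and 74.4 on D28 and 314 and 350 by D45. The days did not overlap, and its log2 fold change was 5.25 ± 0.30 (SE, edgeR adjusted p 0.00018) for D45 against D11. PDE5A, the cGMP-specific target of sildenafil, fell by contrast, from 65.5 and 60.0 CPM on D11 to 22.5 and 30.5 on D28 and 17.0 and 20.1 on D45 (-2.16 ± 0.18, edgeR adjusted p 0.00044). PDE8A and PDE8B, high-affinity cAMP enzymes, rose by 1.63 ± 0.19 and 1.12 ± 0.23, and PDE1C, a calmodulin-activated enzyme, by 1.46 ± 0.22 on the log2 scale (edgeR adjusted p 0.0013, 0.0103 and 0.0033).

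PDE4C (1.70 ± 0.36, edgeR adjusted p 0.0113) and PDE2A (-1.04 ± 0.24, edgeR adjusted p 0.0165) passed as well, at no more than 2.04 and 6.24 CPM in any library. PDE9A, which is specific for cGMP, was higher by 0.55 ± 0.17 (edgeR adjusted p 0.0458). The calls of PDE7B, PDE5A, PDE8A and PDE1C passed in all 6 fits that left out 1 library, whereas those of PDE4C, PDE2A, PDE8B and PDE9A did not. PDE1A, named here after its values were seen, was higher on D28 (1.61 ± 0.36 against D11, edgeR adjusted p 0.0205, beside 12.5% of genes called higher) and lower again on D45 (-1.79 ± 0.36 against D28, edgeR adjusted p 0.0306, beside 4.95% called lower). It stood at 110 and 296 CPM in the D28 libraries and between 52.3 and 65.1 in the others, and the first of these calls passed in 2 of the 6 fits that left out 1 library.

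**Figure D4:**
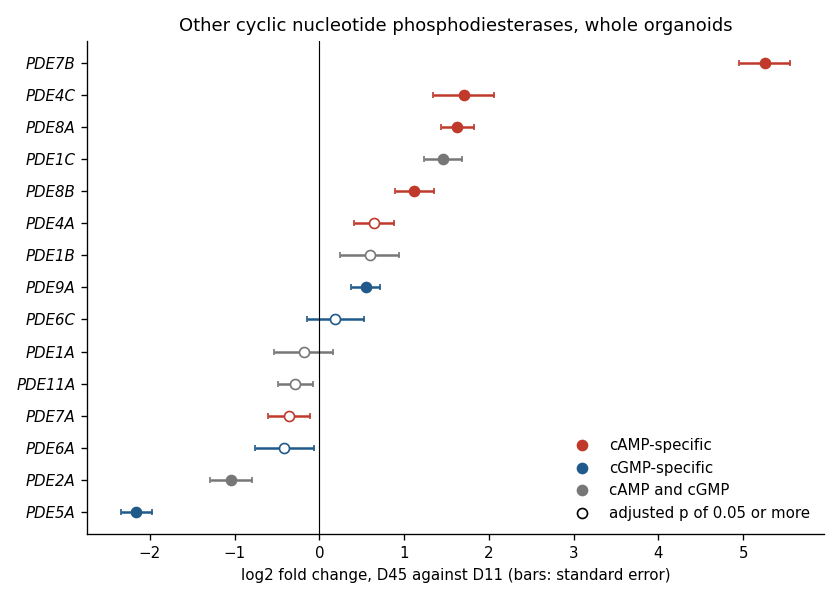
Log2 fold change of D45 against D11 in whole organoids (horizontal axis, bars are the standard error) for the 15 other phosphodiesterases tested (vertical axis), coloured by substrate; open circles have an adjusted p of 0.05 or more. PDE7B stands apart at 5.25 and PDE5A is lowest at -2.16.

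PDE7B and PDE5A also differed between the exclusive groups. PDE7B was higher in COL1A1-positive cells (2.11 ± 0.24 SE, edgeR adjusted p 3.8e-05), LMX1A-positive cells (1.37 ± 0.23, edgeR adjusted p 0.0019) and AQP4-positive cells (1.40 ± 0.28, edgeR adjusted p 0.0038) than in STMN2-positive cells. The AQP4 call was lost without D45 library A (edgeR adjusted p 0.0798). PDE5A was higher in COL1A1- than in STMN2-positive cells (1.84 ± 0.11, edgeR adjusted p 6.7e-07), at 55.5 against 19.6 CPM in D28 library A and 38.7 against 13.5 in D45 library B. PDE7A, another cAMP-specific enzyme, was lower in COL1A1-positive cells (-0.93 ± 0.13, edgeR adjusted p 0.00014). In this comparison 3 of the 16 genes were higher (beside 24.2% of all genes), 4 lower (beside 23.9%), 6 did not pass and 3 were too low to test.

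On the synthesis side of cAMP, 4 of the 9 adenylyl cyclases tested were higher on D45 than on D11 (beside 17.3% of all genes) and 1 was lower (beside 17.4%), and ADCY4 was too low to test. ADCY8, a calcium-stimulated cyclase of neurons, went from 1.23 and 1.32 CPM to 24.97 and 25.06 (log2 fold change 3.88 ± 0.21 SE, edgeR adjusted p 0.00015). ADCY10, the soluble cyclase, rose by 1.69 ± 0.40, ADCY1 by 1.37 ± 0.23 and ADCY2 by 1.11 ± 0.30, while ADCY3, the cyclase of primary cilia, had -0.91 ± 0.27 (edgeR adjusted p 0.0166, 0.0046, 0.0286 and 0.0356). Only ADCY8 of these passed in every fit that left out a library.

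Of the 17 cAMP effectors 2 were higher, 2 lower and 13 did not pass, beside 17.3% of all genes higher and 17.4% lower, so neither share was above that of all genes. RAPGEF3, the cAMP-activated exchange factor EPAC1, rose from 0.499 and 0.461 CPM on D11 to 4.57 and 3.81 on D45 (2.71 ± 0.27 SE, edgeR adjusted p 0.00071), and CRTC3, a CREB coactivator, by 0.79 ± 0.16 (edgeR adjusted p 0.0095). PKIB, an inhibitor of protein kinase A, went from 22.7 and 26.5 CPM on D11 to 73.2 and 52.5 on D28 and 14.3 and 13.4 by D45. It thus rose and then fell, with -1.24 ± 0.25 for D45 against D11 (edgeR adjusted p 0.0101). PRKACA, a catalytic subunit of protein kinase A, fell as well (-0.83 ± 0.18, edgeR adjusted p 0.0128). Of these 4 calls, that of RAPGEF3 passed in every fit that left out a library, and those of CRTC3, PKIB and PRKACA did not.

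Among 11 genes known to respond to cAMP, 4 were higher on D45 than on D11 (beside 17.3% of all genes) and 1 lower (beside 17.4%). VGF, a neuropeptide precursor, went from 8.47 and 10.3 CPM to 50.1 and 49.6 on D28 and 34.9 and 35.5 on D45 (1.49 ± 0.19 SE for D45 against D11, edgeR adjusted p 0.0017). BDNF, the neurotrophin, NR4A3, a nuclear receptor, and SIK1, a salt-inducible kinase, were higher by 1.37 ± 0.33, 1.27 ± 0.20 and 0.89 ± 0.19 (edgeR adjusted p 0.0188, 0.0038 and 0.0121). NR4A2, which also specifies dopaminergic neurons, was lower (-1.13 ± 0.32, edgeR adjusted p 0.031). The calls of VGF and NR4A3 passed in every fit that left out a library, and those of BDNF, SIK1 and NR4A2 did not. For D45 against D28, 1 of the 11 was higher (beside 4.51% of all genes) and none lower (beside 4.95%), and the median log2 fold change was -0.58, against -0.03 for all genes.

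Of the 9 genes of the cGMP branch, 3 were higher on D45 than on D11 (beside 17.3% of all genes) and 2 lower (beside 17.4%). NPR3, the natriuretic peptide clearance receptor, went from 1.03 and 0.933 CPM to 29.6 and 28.7 (4.48 ± 0.35 SE, edgeR adjusted p 0.00037). NOS1, the neuronal nitric oxide synthase, went from 0.632 and 0.677 to 10.4 and 16.2 CPM (3.94 ± 0.70, edgeR adjusted p 0.0059), and PRKG2, a cGMP-dependent kinase, rose by 1.30 ± 0.32 (edgeR adjusted p 0.0194). GUCY1B1, a subunit of the nitric oxide receptor, and PRKG1, the other cGMP-dependent kinase, were lower (-0.97 ± 0.17 and -0.84 ± 0.24, edgeR adjusted p 0.0051 and 0.0362). PDE4DIP (myomegalin, 1.39 ± 0.18, edgeR adjusted p 0.0017) and AKAP6, a kinase anchoring protein (0.88 ± 0.23, edgeR adjusted p 0.0264), were higher among 4 partner proteins, and no row was matched to SLFN12. The calls of NPR3, NOS1 and PDE4DIP passed in every fit that left out a library, and those of PRKG2, GUCY1B1, PRKG1 and AKAP6 did not.

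The D28 against D11 step held 12 higher and 3 lower of the 65 listed genes tested, beside 12.5% and 10.6% of all genes, and 7 of these 15 passed in every fit that left out a library. From D28 to D45 it was 13 and 3, beside 4.51% and 4.95%. None of the latter calls held in every fit that left out a library. This was not particular to the listed genes. Without D45 library A or B nearly all calls over all genes were lost as well, and without D28 library B they became more frequent. Each such fit left a day without replicate libraries, so its counts of calls are not set against those of the full fit. For D45 against D11 the counts were 21 and 8, beside 17.3% and 17.4% of all genes, and not all of these calls passed in each such fit.

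The genes with levels most like a member's over the 20 sums of library and exclusive group were found by Pearson correlation of log2(CPM + 1) among 10595 genes. The sums share libraries and days, so these values are a description. PDE7B was the closest to PDE3A (r = 0.97), followed by ABI3BP, a matrix-binding protein, and GABRA4, a GABA receptor subunit (both 0.97), and PDE7B was also the closest to PDE4D (r = 0.96), ahead of STIM1 and CRY2 (both 0.95). For PDE4B they were SLC1A3, the astrocyte glutamate transporter (0.91), TMEM184C (0.91) and PID1 (0.89). PDE10A was nearest to HDAC4 (0.94), GALNTL5 (0.93) and CDH20 (0.93), and PDE3B to LRP10 and PTPRM (both 0.90) and FASTK (0.87). Among the members, PDE3A and PDE4D were the most alike (r = 0.95), and PDE3B and PDE10A the least (0.47).

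The cAMP response element bound by CREB, with the letters TGACGTCA, was searched on both strands in the 250 bases before each annotated transcript start. It was in none of the windows of PDE3B (1 start), PDE4B (6), PDE4D (23) and PDE10A (1), and in 1.56% of 45707 windows of all genes. The shorter site, TGACG or its reverse complement CGTCA, which the full element also holds, was in 1 of the 6 windows of PDE4B and in no other of these, beside 20.5% of all windows. The annotated PDE3A start is incomplete at its 5′ end, so it was not searched.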

How the data were processed

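Per the file headers and the study's methods, the authors made each table with Cell Ranger 8.0.1 on Sscrofa11.1 from 10x GEM-X 3′ v4 libraries; the deposited values are UMI counts per gene and cell barcode, not normalised. Whether intronic reads were counted is not given in the sources used here. After the study's stated limits (200 to 7000 genes, at most 10% mitochondrial counts, here over the 13 mitochondrial protein-coding genes), counts were summed per library or per library and marker group. Doublets were not called and free RNA was not removed.

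Sums were tested with edgeR 4.0.16 (TMM, filterByExpr, quasi-likelihood test, Benjamini-Hochberg over all genes, threshold 0.05). Whole organoids were fitted with day as the factor, and marker groups of D28 and D45 with group and library; an SE is the log2 value divided by the square root of F. DESeq2 1.42.0 was an alternative. The study describes its A and B libraries as biological duplicates, so p-values cover the spread of 2 libraries per day from 1 cell line. Members and lists were chosen with earlier results of these data known. Beside the members, up to 6 other phosphodiesterases and 4 genes of each other list were named per direction by the largest called change of D45 against D11, any untested listed gene, and the 3 most alike genes per member with at least 5 CPM.

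Counts of 22197 genes were simulated with the same dispersion for every gene, and 200 genes were changed. For D45 against D11, 24.7% of those changed by 1 log2 unit and 92.5% of those changed by 2 were recovered, with 7 false calls. Real genes differ in their spread, so recovery in the data can be different. Alternatives were other size factors, no filter on low counts, other cell filters, at least 3 UMIs of a marker, groups that were not exclusive, each day alone, a block on the library letter and each library left out. The change of a group difference between days, levels without COL1A1-positive cells and cells with at least 3 UMIs of a member were added after seeing the data. A few items are not reported here.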

Additional observations from a re-analysis of the deposited data

Results flagged for a closer look

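In exclusive cells, the D45 to D28 ratio of the mean PDE3B level was 2.15 in COL1A1-positive and 0.698 in STMN2-positive cells, and the libraries of the 2 days did not overlap in either group, so these exclusive cells moved in opposite directions. In groups that were not exclusive the ratios were 1.83 and 1.02, and the days of the STMN2-positive cells overlapped, so the opposite direction was lost. The difference between COL1A1- and STMN2-positive cells was larger on D45 than on D28 by 1.62 on the log2 scale (edgeR, adjusted p 0.0183), 1 of 12 such tests, added after the values had been seen, of which 4 passed. Over all genes 2.01% passed for COL1A1 against STMN2, 1.8% for LMX1A against STMN2 and 4.84% for LMX1A against COL1A1. For PDE3B of LMX1A- against COL1A1-positive cells the same change was -1.45 (edgeR, adjusted p 0.0177). For PDE10A it was 1.42 for LMX1A- against STMN2-positive cells (edgeR, adjusted p 0.011) and 0.86 for LMX1A- against COL1A1-positive cells (edgeR, adjusted p 0.0443). Between D28 and D45 the median depth of exclusive LMX1A-positive cells went from 11507 and 13287.5 UMIs to 2632 and 2763, and its part in these differences was not tested.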

How the results depend on the processing

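Same-lettered libraries did not deviate together (correlations of their deviations of -0.32, 0.05 and -0.20 between pairs of days). Whether the letters share a batch or culture round cannot be told from these values. The replicate block (library letter) left 4 listed genes higher and 1 lower for D45 against D28 and 5 lower for D45 against D11; DESeq2 found 7 lower for D45 against D28. Over all genes, the block called 3313, 635 and 5886 for D28 against D11, D45 against D28 and D45 against D11, in place of 5132, 2100 and 7695, and DESeq2 called 6581, 4349 and 8499. Without 1 library, the all-gene counts ranged from 1106 to 10536, 0 to 10015 and 2797 to 12297; the 0 was without D45 A and the 10015 without D28 B. Listed genes then numbered 4 to 23 higher and 3 to 11 lower for D28 against D11, 0 to 25 and 0 to 14 for D45 against D28, and 11 to 30 and 1 to 14 for D45 against D11. Log2 fold changes then ranged from 4.39 to 5.11, 1.74 to 2.52 and 6.71 to 7.0 for PDE3A over the same 3 comparisons, from -0.41 to 0.00 for PDE3B in D45 against D28, and from 0.94 to 1.15 for PDE10A in D45 against D11.

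Of PDE3B, PDE4B, PDE4D and PDE10A, those past the threshold numbered 1 within D28 (beside 29.9% of all genes) and 4 within D45 (50.9%) for COL1A1 against STMN2, and 1 to 3 without a library (30.9% to 44.0%). For AQP4 against STMN2 they were 1 with DESeq2 (36.0%), 1 with at least 3 UMIs of the marker (46.4%), 2 in groups that were not exclusive (43.0%) and 3 within D45 (47.7%), and 0 to 1 without a library (6.17% to 35.6%). For LMX1A against STMN2 they were 2 without the low-count filter (14.6%), 3 with at least 3 UMIs (39.9%), 0 with edgeR when not exclusive (0 at an unadjusted p under 0.05, beside 1.78%) and 3 within D45 (23.7%), and 0 to 1 without a library (13.2% to 21.5%). For COL1A1 against AQP4 they were 2 when not exclusive (25.5%) and 2 within D45 (38.3%), and 0 to 2 without a library (5.32% to 26.8%). For LMX1A against AQP4 there was 1 with at least 3 UMIs (11.6%), and for LMX1A against COL1A1 2 with at least 3 UMIs (41.1%), 2 within D28 (17.9%) and 3 within D45 (33.0%). PDE3B of LMX1A- against COL1A1-positive cells turned to 0.74 within D28. The cause of these changes was not tested. Within D28 no fit could be made with exclusive AQP4-positive cells, since they were too few.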

Other observations

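Cells with at least 3 UMIs of a member were set against cells with none among the D45 cells with at least 5000 UMIs, a comparison chosen after the data had been seen. It is a description, since the cells with more UMIs of a member were deeper, with medians of 14124 and 13838 against 9201 and 9129 UMIs for PDE4B. Ratios are of CPM with 5 CPM added, in the library where the ratio was lower, and the genes named are from the 8 with the largest ratios per member, picked after their values were seen. Cells high in PDE3A held more COL23A1 (25.1-fold), COL21A1 (20.6), COL1A1 (16.0), LUM (15.7) and COL6A3 (14.4). For cells high in PDE4D, CHSY3 (8.98), COL3A1 (8.53), DCN (8.14), LUM (7.84) and COL1A1 (6.41) were among the 8.

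For cells high in PDE4B, MAG (7.30-fold), BCAS1 (6.82), MBP (6.50), UGT8 (5.54), MOG (5.06) and FBXO32 (4.24) were among the 8. In all cells with a UMI of SOX10, the oligodendrocyte lineage factor, PDE4B was at 403 and 358 CPM on D45, above the 275.9 and 270.5 of whole organoids, while PDE3A was at 282.3 and 368.7 CPM, below the 749.7 and 857 of whole organoids. Cells high in PDE10A held more SLCO1C1, a thyroid hormone transporter (7.55-fold), PDE3A (5.32), NTS, the neurotensin precursor (4.86), MS4A7 (4.71), TFPI2 (4.41), the collagen gene COL23A1 (4.40) and ID1 (4.06). In cells with a UMI of GAD2, the GABA-synthesising enzyme, PDE3A was at 376.7 and 442.7 CPM on D45.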
